A study of Homo sapiens with 6 samples.

Results

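The pentose phosphate pathway enzymes described here were PGD, PGLS, RPIA, RPE, TKT and TALDO1. They were chosen by name as enzymes of the pathway, and all 6 were among the 13117 genes of the deposited table. Homologues and genes of adjoining steps are given after them. The mRNA of SNU449 cells, an established human hepatocellular carcinoma line, was sequenced in 2 groups of 3 libraries. The Dox libraries came from cells given 2 µM doxycycline hydrochloride for 48 h and the Cont libraries from cells left without the drug. All 6 libraries carried the same construct, pInducer20-FOXO1AAA, in which doxycycline switches on FOXO1AAA, a variant of the forkhead factor FOXO1 that the kinase AKT cannot phosphorylate at its usual sites. The labels give the genotype of every sample as WT and do not say whether the line is 1 clone. No library had the drug without the construct, so an effect of doxycycline and an effect of FOXO1AAA cannot be told apart. The comparison asked which transcripts differ once FOXO1AAA is induced.

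The pathway branches off glycolysis at glucose 6-phosphate. Its oxidative branch makes NADPH, which cells use for lipid synthesis and for keeping glutathione reduced, and ends in a pentose phosphate. Its non-oxidative branch interconverts pentose phosphates with the glycolytic intermediates fructose 6-phosphate and glyceraldehyde 3-phosphate, and so supplies ribose 5-phosphate for nucleotides or returns carbon to glycolysis. In liver and in liver tumours the pathway is known mainly as a source of NADPH and ribose. Several of its genes are known targets of the transcription factor NRF2.

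The libraries held an estimated 31.4 to 47.1 M reads in Dox and 28.4 to 41.6 M reads in Cont (M, the mega prefix), on a scale derived from the spacing between low FPKM values. The totals implied by summing FPKM times length were 2.27 to 2.41 times higher, so the scale is uncertain by that factor. RPIA, the enzyme gene with the fewest reads, had an estimated 537 to 1473 reads per library on that scale. FOXO1 mRNA was at 2.87, 3.50 and 2.01 FPKM (fragments per kilobase of transcript, scaled to library size) in Dox and at 0.741, 0.776 and 0.889 FPKM in Cont, and whether the construct contributed to that row was not tested. Of 8 hepatocyte markers only ALB and FGB were listed in the table, with a summed level of 8.14 to 10.8 FPKM in Dox and 135 to 192 FPKM in Cont. FGB fell, whereas ALB was at 1.71, 1.00 and 0.850 FPKM in Dox and at 0.571, 0.298 and 0.0941 FPKM in Cont, too low to be tested. The epithelial markers KRT8, KRT18 and CDH1 summed to 32.8 to 34.5 FPKM in Dox and 122 to 127 FPKM in Cont, and EPCAM was not listed. Of 3 leukocyte markers only CD14 was listed, at 2.25 to 2.38 FPKM in Dox and 1.73 to 2.35 FPKM in Cont. The endothelial markers PECAM1 and CDH5 summed to at most 0.975 FPKM in Dox and 0.401 FPKM in Cont. COL1A1 and ACTA2, of 3 stellate cell or fibroblast markers, summed to 4.05 to 5.77 FPKM in Dox and 11.4 to 13.88 FPKM in Cont. COL1A1 fell by 1.69 in log2 and ACTA2 rose by 0.49 (limma adjusted p = 1.59e-06 and 0.0130). The part of these marker differences in the results below was not tested.

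Of the 6 enzyme mRNAs, 4 fell in Dox, 1 rose and 1 was not called (limma, adjusted p under 0.05 over 11526 tested genes). By the ratio of mean FPKM, TKT fell furthest, 11.9-fold, whereas PGD, RPIA and TALDO1 fell 1.88-fold to 2.01-fold. PGLS rose 1.26-fold and RPE was 1.08-fold lower without passing the test. Changes were common in the whole table: 80.4% of tested genes were called, 42.8% lower and 37.6% higher. The FPKM of the 2 groups did not overlap for 5 of the 6 enzymes and for 82.1% of tested genes, so a call alone does not set these enzymes apart. The median log2 change of the 6 was -0.87, beside -0.06 for all tested genes. Since this is bulk RNA, fewer cells that express a gene and less of its mRNA per cell cannot be told apart. Cont replicate 3 was the lowest Cont library for all 6 enzymes, and it also had the highest share of mitochondrially encoded mRNA in Cont (4.67% of summed FPKM, against 3.00% and 3.52%).

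**Figure D1:**
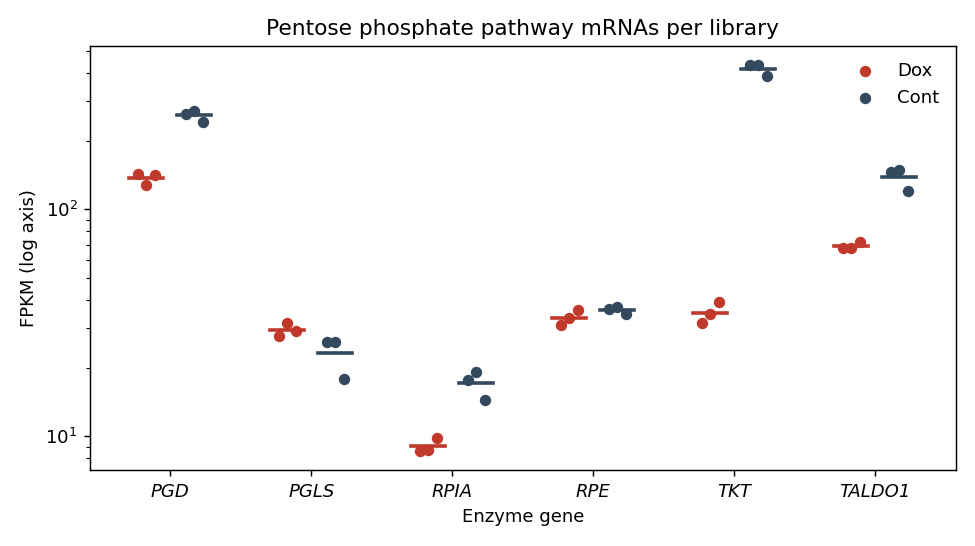
FPKM of the 6 enzyme mRNAs on a log axis, with 1 point per library and a bar at the mean of the 3 Dox or the 3 Cont libraries. TKT lies at 31.7 to 39.0 FPKM in Dox and 388 to 432 FPKM in Cont, while the RPE points of both groups lie between 30.8 and 37.1 FPKM.

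The promoters of TKT, PGD and PGLS are shown because these genes had the largest fall (TKT), the NADPH-making step (PGD) and the only rise (PGLS). Each runs from 250 bases before to 50 bases after the RefSeq start site (GRCh38.p14) and is written along the gene's own strand, 5′ to 3′. They lie at chr3:53255973-53256272 (minus strand) for TKT, chr1:10398814-10399113 (plus) for PGD and chr19:17511399-17511698 (plus) for PGLS. Capitals mark GGGCGG, the GC box bound by SP1, on either strand, and TGACNNNGC, the core of the antioxidant response element bound by NRF2, on either strand. Matches may overlap.
TKT: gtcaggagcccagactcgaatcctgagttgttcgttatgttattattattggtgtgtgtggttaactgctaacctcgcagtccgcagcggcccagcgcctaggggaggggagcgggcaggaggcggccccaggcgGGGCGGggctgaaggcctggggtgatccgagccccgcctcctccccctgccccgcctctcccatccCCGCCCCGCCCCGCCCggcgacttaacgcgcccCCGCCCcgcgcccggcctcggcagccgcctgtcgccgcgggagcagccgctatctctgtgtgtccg
PGD: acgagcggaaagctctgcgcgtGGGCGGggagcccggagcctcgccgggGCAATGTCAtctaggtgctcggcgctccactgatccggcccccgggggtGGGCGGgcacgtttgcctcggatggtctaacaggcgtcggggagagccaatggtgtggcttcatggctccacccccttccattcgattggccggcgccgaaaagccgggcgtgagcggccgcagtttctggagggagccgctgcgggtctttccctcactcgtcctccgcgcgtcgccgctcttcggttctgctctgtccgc
PGLS: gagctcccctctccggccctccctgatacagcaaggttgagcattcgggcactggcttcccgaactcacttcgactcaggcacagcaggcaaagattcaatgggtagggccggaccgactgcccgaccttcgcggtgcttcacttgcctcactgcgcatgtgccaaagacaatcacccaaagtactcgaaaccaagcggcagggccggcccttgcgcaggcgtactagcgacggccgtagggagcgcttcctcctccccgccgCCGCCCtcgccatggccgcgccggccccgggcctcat
TKT held 5 GC boxes, 3 of them overlapping in 1 run that starts at position -49 from the start site. Of 27305 promoters in the same table, 44.6% held at least 1 GC box and 5.22% at least 5. PGD and TALDO1 held 2 each, RPE held 3, and RPIA and PGLS held 1 each. The element TGACNNNGC matched once in PGD, at position -201 on the opposite strand, and once in RPE, against 13.6% of all promoters. GTAAACA, the FOXO core motif, and CACGTG, the E-box, matched in none of the 6 windows on either strand. GTAAACA matched in 3.41% and CACGTG in 7.43% of all promoters. The share of G and C was 70.7% in the TKT window, 68.7% in PGD and 65.3% in PGLS, beside a median of 58.3% over all promoters.

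PGD encodes 6-phosphogluconate dehydrogenase, which makes NADPH and ribulose 5-phosphate at the end of the oxidative branch. The gene lies on chromosome 1, 10398592 to 10420144 (GRCh38, GENCODE release 29, plus strand). PGD was at 144, 128 and 142 FPKM in the 3 Dox libraries and at 263, 273 and 243 FPKM in the 3 Cont libraries. Every Dox library was below every Cont library. The means were 138 ± 8.83 FPKM in Dox and 259 ± 15.4 FPKM in Cont (SD, n = 3 each), a fall of 0.91 on the log2(FPKM + 1) scale (SE 0.07, limma adjusted p = 1.82e-06). A processed pseudogene, PGDP1, was 93.4% identical to the PGD transcript over 1450 bases and was not listed in the table. The handling of reads shared with it is not stated.

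PGLS encodes 6-phosphogluconolactonase, which opens the lactone made by the first step of the branch. It lies on chromosome 19, 17511629 to 17521288, on the plus strand. PGLS was at 27.6, 31.7 and 29.2 FPKM in Dox and at 26.1, 26.0 and 17.9 FPKM in Cont. The groups did not overlap, but Cont replicates 1 and 2 lay close to the lowest Dox library and Cont replicate 3 lay far below them. The means were 29.5 ± 2.07 FPKM in Dox and 23.4 ± 4.69 FPKM in Cont (SD, n = 3 each), a log2 change of 0.34 (SE 0.13, limma adjusted p = 0.0381). Without Cont replicate 3 the log2 change was 0.17 and the call ended (limma adjusted p = 0.0728). It also ended without Dox replicate 2 (log2 change 0.29, limma adjusted p = 0.112), without Dox replicate 3 (0.35, 0.0766) and without the mean-variance trend (0.34, 0.0513). An exon of a long non-coding RNA on the other strand, AC010618.3, overlaps PGLS by 261 bases. That RNA was not listed, and counting by strand is not stated.

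RPIA, ribose 5-phosphate isomerase, turns ribulose 5-phosphate into ribose 5-phosphate, the sugar of nucleotides. It lies on chromosome 2, 88691644 to 88750935, on the plus strand. RPIA was at 8.62, 8.71 and 9.83 FPKM in Dox and at 17.7, 19.2 and 14.4 FPKM in Cont, with no overlap. The means were 9.06 ± 0.673 FPKM in Dox and 17.1 ± 2.43 FPKM in Cont (SD, n = 3 each), a fall of 0.84 in log2 (SE 0.11, limma adjusted p = 5.22e-05). RPIA was the lowest of the 6 enzyme mRNAs in both groups.

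RPE, ribulose 5-phosphate 3-epimerase, turns the same substrate into xylulose 5-phosphate, the carbon donor of transketolase. It lies on chromosome 2, 210002565 to 210022259, on the plus strand. RPE was at 30.8, 33.2 and 35.9 FPKM in Dox and at 36.4, 37.1 and 34.7 FPKM in Cont. The groups overlapped, since Dox replicate 3 was above Cont replicate 3. The log2 change was -0.11, with a 95% interval of -0.28 to 0.06 (limma adjusted p = 0.186), and its sign turned with quantile normalization (0.02) and in TPM computed after the 13 mitochondrially encoded genes were left out, called non-mitochondrial TPM here (0.16). The last 837 bases of RPE overlap exons of KANSL1L on the minus strand. KANSL1L mRNA rose to 23.9 ± 1.89 FPKM in Dox, against 2.52 ± 0.104 FPKM in Cont (SD, n = 3 each; log2 change 2.82, limma adjusted p = 3.46e-09). Counting by strand is not stated, so reads of KANSL1L may stand under RPE, and their part in the RPE values was not tested. RPEL1, a copy of RPE that is 96.6% identical over 1165 bases, was listed at 0.176 to 0.279 FPKM in Dox and 0.165 to 0.307 FPKM in Cont.

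TKT encodes transketolase, which moves units of a pair of carbons between sugar phosphates and needs thiamine diphosphate. It lies on chromosome 3, 53224707 to 53256052, on the minus strand. TKT was at 31.7, 34.5 and 39.0 FPKM in Dox and at 432, 432 and 388 FPKM in Cont. The highest Dox library was far below the lowest Cont library. The means were 35.1 ± 3.65 FPKM in Dox and 417 ± 25.1 FPKM in Cont (SD, n = 3 each). The log2 change was -3.54 (SE 0.09, limma adjusted p = 1.37e-09), and it ran from -3.28 in non-mitochondrial TPM to -3.61 without Dox replicate 3. Of the 11526 tested genes, 31 had a lower log2 change, so 0.278% were at least as low as TKT, counting TKT itself. The homologue TKTL2 was at its lowest listed value, 0.0209 FPKM, in every Cont library and at 0.364, 0.111 and 0.812 FPKM in Dox. TKTL1 was not listed.

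TALDO1 encodes transaldolase, which shares substrates with transketolase and links it to glycolysis. It lies on chromosome 11, 747329 to 765024, on the plus strand. TALDO1 was at 67.5, 67.9 and 71.5 FPKM in Dox and at 145, 149.9 and 121 FPKM in Cont, with no overlap. The means were 69.0 ± 2.24 FPKM in Dox and 139 ± 15.6 FPKM in Cont (SD, n = 3 each), a fall of 0.99 in log2 (SE 0.09, limma adjusted p = 2.81e-06).

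The falls of TKT, TALDO1, PGD and RPIA held their call under every scaling, pseudocount, filter and left-out library tried. Their size depended on scaling. In non-mitochondrial TPM the median of all tested genes shifted by 0.26 in log2, and the log2 changes were -0.63 for PGD, -0.60 for RPIA and -0.72 for TALDO1. In TPM the median shifted by 0.10. PGLS had a log2 change of 0.46 in TPM and 0.62 in non-mitochondrial TPM. Mitochondrially encoded genes held 13.2% to 14.7% of summed FPKM in Dox and 3.00% to 4.67% in Cont. Among all genes, 46.7% of calls were higher as tested and 59.0% in non-mitochondrial TPM.

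**Figure D2:**
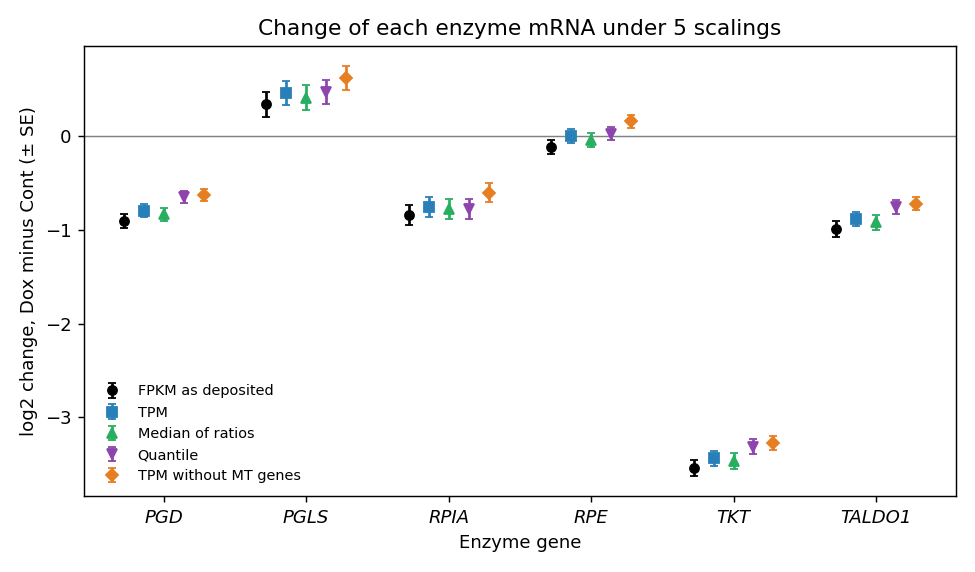
Log2 change of each enzyme mRNA, Dox minus Cont, with its SE from limma, under the FPKM as deposited and 4 other scalings (MT genes are the mitochondrially encoded ones). TKT stays between -3.54 and -3.28, TALDO1, PGD and RPIA stay below 0, PGLS stays above 0, and RPE lies at both sides of 0.

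FPKM is a level per length, so a comparison of different enzymes rests on the gene lengths used, which are not given. The order, sums and shares below depend on those lengths. In Dox the order by mean FPKM was PGD, TALDO1, TKT, RPE, PGLS and RPIA, and in Cont it was TKT, PGD, TALDO1, RPE, PGLS and RPIA. The ranges of TKT and RPE, and those of RPE and PGLS, overlapped in Dox. In Cont only the neighbours PGLS and RPIA had overlapping ranges. TKT was thus the third of the 6 in every Dox library and the first in every Cont library. TKT made up 10.2%, 11.4% and 11.9% of the 6 enzymes' summed FPKM in Dox and 46.9%, 46.1% and 47.4% in Cont. PGD made up 42.1% to 46.3% in Dox and 28.6% to 29.6% in Cont, and TALDO1 21.8% to 22.3% in Dox and 14.8% to 16.0% in Cont. The sum of the 6 was 314 ± 12.5 FPKM in Dox and 892 ± 63.8 FPKM in Cont (SD, n = 3 each), a 2.84-fold difference. Without TKT, the other 5 summed to 279 ± 9.78 FPKM in Dox and 475 ± 39.1 FPKM in Cont, a 1.70-fold difference. The oxidative pair PGD and PGLS summed to 167 ± 6.89 FPKM in Dox and 283 ± 19.9 FPKM in Cont, and the 4 non-oxidative enzymes to 146 ± 8.96 FPKM in Dox and 609 ± 44.1 FPKM in Cont. For each of these sums and shares the groups did not overlap and an exact two-sided permutation test gave p = 0.1, the smallest p that 3 against 3 libraries allow.

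**Figure D3:**
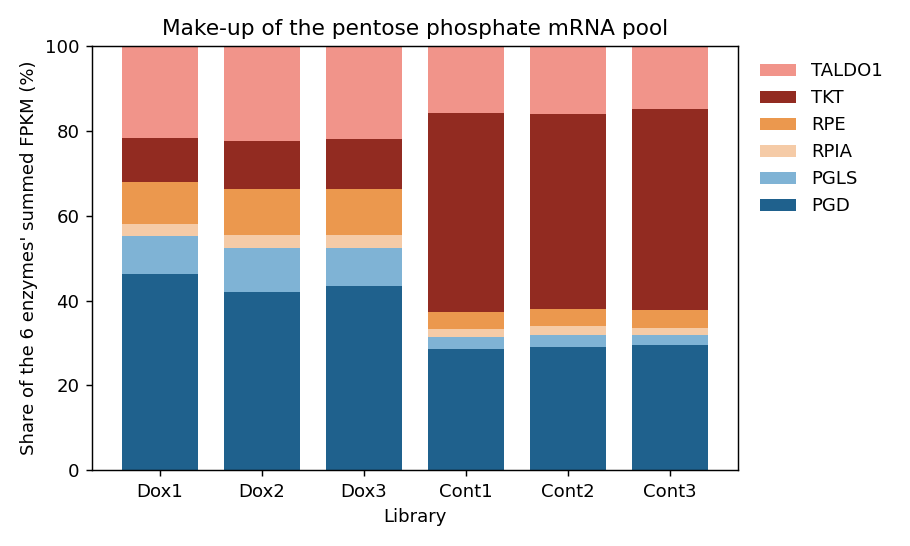
Share of each enzyme in the summed FPKM of the 6, stacked to 100% for each of the 3 Dox and the 3 Cont libraries. The TKT band spans 10.2% to 11.9% in Dox and 46.1% to 47.4% in Cont.

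A plain ratio of the FPKM of 2 enzymes within a library is not changed by a single scaling factor per library, though quantile normalization or an added pseudocount can change it. The log2 differences and tests of ratios given here use the plain FPKM ratios. The ratio of TKT to TALDO1, which act on shared intermediates, was 0.470, 0.509 and 0.545 in Dox and 2.97, 2.88 and 3.21 in Cont. The ratio of TKT to RPE, which makes a substrate of transketolase, was 1.03, 1.04 and 1.09 in Dox and 11.9, 11.6 and 11.2 in Cont. All 5 ratios with TKT on top were lower in every Dox library than in any Cont library, with log2 differences from -2.57 (over TALDO1) to -3.93 (over PGLS). TALDO1 over PGD was 0.470, 0.531 and 0.503 in Dox and 0.553, 0.550 and 0.499 in Cont, a log2 difference of -0.09 (SE 0.07, exact permutation p = 0.3) with overlapping groups. RPIA over PGD also overlapped, at 0.0600, 0.0682 and 0.0691 in Dox and 0.0672, 0.0704 and 0.0595 in Cont (log2 difference 0.0020, SE 0.10, exact permutation p = 1). TALDO1 over RPIA was 7.83, 7.79 and 7.28 in Dox and 8.23, 7.80 and 8.37 in Cont, a log2 difference of -0.09 (SE 0.05, exact permutation p = 0.2). Of the 15 ratios between the 6 enzymes, these 3 overlapped between the groups and 12 did not. Over all pairs of tested genes, 82.4% of ratios did not overlap. The exact permutation test gave p = 0.1 for the 12, the smallest possible, and 0.125 after Benjamini-Hochberg adjustment over the 15. On log2(FPKM + 1), 13 of the 15 did not overlap (82.8% of all pairs), since TALDO1 over RPIA then had a log2 difference of -0.15, and RPIA over PGD had 0.07.

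Other genes of pentose phosphate metabolism went both ways: of 14 chosen by name, 10 were tested, 4 fell, 5 rose and 1 was not called (median log2 change 0.40). Of all tested genes, 42.8% were called lower and 37.6% higher, with a median log2 change of -0.06. PRPS1 and PRPS2, which turn ribose 5-phosphate into phosphoribosyl pyrophosphate for nucleotide synthesis, fell. PRPS2 was at 85.9 ± 0.991 FPKM in Dox and 382 ± 33.0 FPKM in Cont, and PRPS1 at 26.3 ± 2.60 FPKM in Dox and 93.1 ± 4.66 FPKM in Cont (SD, n = 3 each; limma adjusted p = 6.49e-09 and 3.48e-08). Of their associated regulatory proteins, PRPSAP1 fell by 0.82 in log2, while PRPSAP2 rose to 168 ± 5.92 FPKM in Dox, against 36.5 ± 0.986 FPKM in Cont (log2 change 2.17, limma adjusted p = 2.42e-09). H6PD, which carries out the first steps of the pathway inside the endoplasmic reticulum, rose to 16.7 ± 2.32 FPKM in Dox, against 4.86 ± 0.172 FPKM in Cont (log2 change 1.59, limma adjusted p = 4.24e-07). IDNK, a gluconate kinase that feeds 6-phosphogluconate to PGD, rose by 1.70 in log2. The ribokinase gene RBKS and DERA, a deoxyribose phosphate aldolase, each rose by 0.69, and the sedoheptulose kinase gene SHPK fell by 0.60. SHPK passed the filter on low values only through Cont, at 0.564, 0.511 and 0.495 FPKM in Dox and 1.49, 1.24 and 1.22 FPKM in Cont. Without any 1 Cont library it was not tested and 3 genes of the list fell. With no filter SHPK was called (limma adjusted p = 0.000156), and with a pseudocount of 0.1 its log2 change was -1.18. PGM2, a phosphopentomutase, was at 18.5 ± 1.20 FPKM in Dox and 17.0 ± 1.37 FPKM in Cont (limma adjusted p = 0.223), and it was called higher in TPM (log2 change 0.23), in non-mitochondrial TPM (0.39) and under quantile normalization (0.22). TIGAR, TKTL2 and RPEL1 were too low to be tested.

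All 7 tested genes of 9 glycolytic enzymes that share sugar phosphates with the pathway fell (median log2 change -1.23). Among all tested genes 42.8% were called lower, and the median log2 change was -0.06. PFKP, the platelet-type phosphofructokinase, was at 58.1 ± 2.73 FPKM in Dox and 315 ± 24.1 FPKM in Cont, and TPI1, triose phosphate isomerase, at 109.9 ± 17.8 FPKM in Dox and 408 ± 28.8 FPKM in Cont (SD, n = 3 each). The lowest log2 change among the 7 was -2.42, for PFKP. GAPDH fell by 1.83 and the aldolase gene ALDOA by 1.23. ALDOA was low, at 3.25 ± 0.482 FPKM in Dox and 8.95 ± 0.758 FPKM in Cont (SD, n = 3 each), a 2.75-fold difference. The calls of HK1 (-0.33) and PFKL (-0.41) ended in non-mitochondrial TPM, at -0.06 and -0.14. HK2 was too low to be tested and GPI was not listed.

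A further list held 12 other genes that make NADPH or its precursor NADP. Of the 11 tested, 7 fell, 3 rose and NADK2 was not called (median log2 change -0.47). Calls took in 80.4% of all tested genes, 42.8% lower and 37.6% higher, with a median log2 change of -0.06. Among folate enzymes, the cytosolic MTHFD1 fell by 2.46 in log2, while the mitochondrial MTHFD2 and MTHFD2L rose by 0.93 and 1.55. ALDH1L1, which makes NADPH from 10-formyltetrahydrofolate, rose to 7.94, 8.36 and 5.92 FPKM in Dox, against 0.150, 0.123 and 0.203 FPKM in Cont (log2 change 2.85). It passed the filter only through Dox, so that without any 1 Dox library it was not tested and 2 genes of the list rose. With no filter it was called (limma adjusted p = 9.49e-08), and with a pseudocount of 0.1 its log2 change was 4.85. ME3, a mitochondrial malic enzyme, fell by 1.67, IDH2 by 0.86, and NADK, which makes NADP, by 0.60. In non-mitochondrial TPM the log2 change of NADK was -0.35. NADK2 was called higher in non-mitochondrial TPM (0.32). ALDH1L2 was too low to be tested.

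The last list held 6 genes, NRF2 with its regulators and partners, of which 2 fell, 3 rose and 1 was not called. Among all tested genes 42.8% were called lower and 37.6% higher. NFE2L2, the gene of NRF2, was at 232, 242 and 249.4 FPKM in Dox and at 269.6, 279 and 246 FPKM in Cont, with overlap (log2 change -0.13, limma adjusted p = 0.106). It was called higher under quantile normalization (0.16) and in non-mitochondrial TPM (0.15), and lower without Cont replicate 3 (-0.18). KEAP1, which marks NRF2 for degradation, fell to 12.2 ± 1.36 FPKM in Dox, against 21.2 ± 1.90 FPKM in Cont (limma adjusted p = 6.02e-05). BACH1, a repressor that competes with NRF2 for its sites, rose to 252 ± 8.14 FPKM in Dox, against 108 ± 2.30 FPKM in Cont (SD, n = 3 each; limma adjusted p = 5.62e-08). Of the small MAF partners, MAFF rose by 1.18 and MAFG by 0.53 in log2. In non-mitochondrial TPM the log2 change was 0.81 for MAFG and -0.49 for KEAP1, which had -0.75 in FPKM. MAFK was called lower by 0.18 (limma adjusted p = 0.0438), a call that ended under each of the 4 other scalings, with the replicate block and with each library left out in turn, and its sign turned in non-mitochondrial TPM (0.09).

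**Figure D4:**
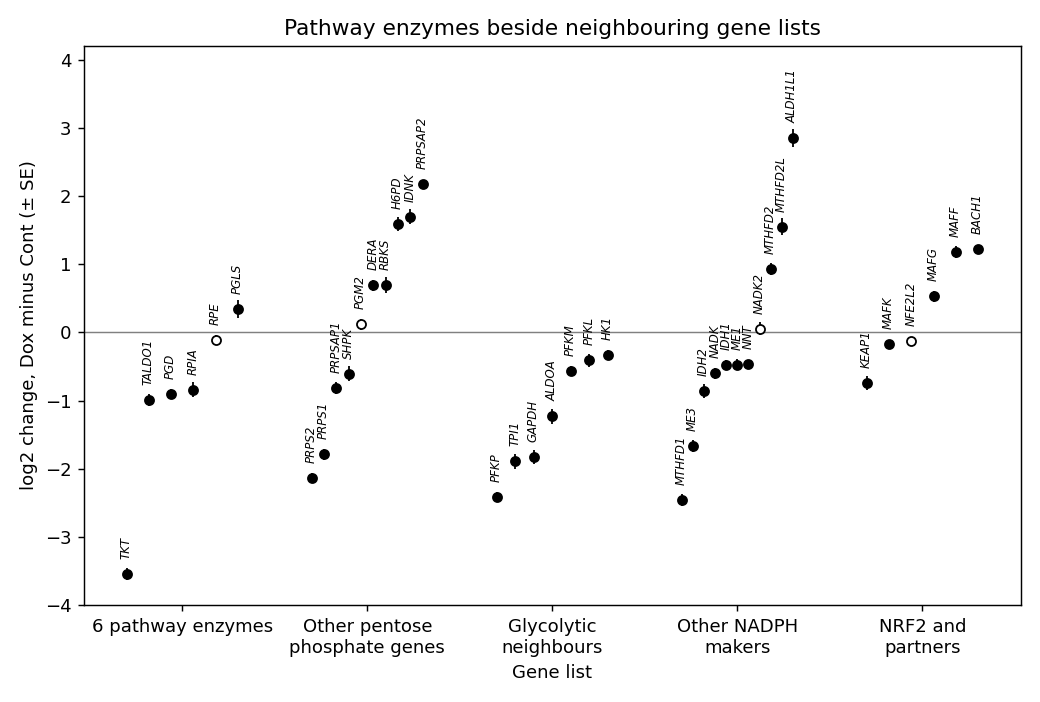
Log2 change, Dox minus Cont, with its SE from limma, for each tested gene of the 6 pathway enzymes and 4 neighbouring lists. Filled points passed an adjusted p of 0.05 and open points did not. TKT, at -3.54, is the lowest point, and ALDH1L1, at 2.85, is the highest.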

How the data were processed

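Per the labels' protocols, poly(A) RNA of 3 Dox and 3 Cont samples was captured and sequenced as cDNA. Per the submitters' processing notes, FastQC 0.11.7 and GRCh38 were used. The aligner, counter, annotation and gene filter are not given in the sources used here. The authors deposited log2 FPKM; the lowest values show an offset added before the log. Whether replicates are separate cultures is not stated, so a p-value here reflects only library-to-library spread, possibly technical. Columns were matched by title, since the description of Cont replicate 1 names the column of Cont replicate 2.

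The deposited log2 values were turned back to FPKM. Genes reaching 1 FPKM in 3 or more libraries (11526 of 13117) were tested on log2(FPKM + 1) with limma 3.58.1 in R 4.3.3, with a mean-variance trend, two-sided, Benjamini-Hochberg adjusted over all tested genes, without a block. A log2 change is Dox minus Cont on that scale, which understates the change of low genes. Fold differences are ratios of mean FPKM. Ratios between enzymes were computed on log2(FPKM + 1) and as plain FPKM ratios, and the plain ratios were put first after it was seen that the pseudocount altered small differences. The test was checked on simulated data in which 200 genes changed, far fewer than were called here. That check did not cover a shift in scaling between the groups. The members and lists were chosen with earlier results of these data known. The text names all 6 enzymes, up to 4 called genes per direction and list in order of change, members not listed or not tested, and the 5 genes nearest to TKT. DERA, HK1, PFKL, PGM2, NADK2, NFE2L2 and KANSL1L fall outside that rule and were named after their values were seen.

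Depth was estimated from the spacing of the lowest values and from the longest GENCODE 29 transcript of each gene. The spacing was chosen to bring the most values within 0.05 reads of a whole number. All of the 30 to 92 values tested per library lay there, which is therefore no check of the estimate. The lowest value times that length was near its most common value for only 39.4% of the 302 genes used. Near copies were sought with BLAST 2.17.0 (at least 200 bases, E-value 1e-20) among GENCODE 29 transcripts. Promoters are RefSeq windows, and all 6 enzymes matched by symbol.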

Additional observations from a re-analysis of the deposited data

How the results depend on the processing

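The alternatives were pseudocount 0.1, the deposited log2 values, no filter, a filter at FPKM 5, TPM, non-mitochondrial TPM, quantile normalization, median-of-ratios scaling, a replicate block, limma without the trend or with robust moderation, and each library left out. PGD, RPIA, TKT and TALDO1 kept direction and call in all of them, so 4 enzymes were lower throughout. PGLS missed the threshold without the trend (0.34, limma adjusted p = 0.0513, which leaves 0 enzymes higher). With 1 library left out, its log2 change was 0.17 to 0.43 and the count of enzymes higher 0 to 1. RPE reversed in non-mitochondrial TPM (0.16) and under quantile normalization (0.0247), without a call. The Dox over Cont ratio of the summed level was 0.35, and 0.43 in non-mitochondrial TPM. The log2 difference of the TALDO1 over RPIA ratio was -0.15 on log2(FPKM + 1), and -0.0927, with overlapping groups, in the deposited log2 values. In the NRF2 list 2 of 6 genes were lower and 3 higher, beside 42.8% and 37.6% of all tested genes. The count lower was 1 in TPM, non-mitochondrial TPM, median-of-ratios scaling, quantile normalization and with the replicate block. With a library left out it was 1 to 2. Without Cont replicate 3 it was 2, with NFE2L2 called lower and MAFK not called. The cause was not tested. Replicate numbers showed no sign of pairing: deviations of same-numbered libraries correlated at 0.0371, -0.00483 and 0.0793. Those of differently numbered libraries correlated at -0.0932 to 0.0924. With 3 libraries a group this cannot exclude a pairing. With the replicate block, PGLS was at 0.34 (limma adjusted p = 0.0280), and MAFK lost its call. TIGAR, TKTL2, RPEL1, HK2 and ALDH1L2 were too low to be tested, and with 3 libraries a group the exact tests cannot go below 0.1.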

Other observations

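The 5 tested genes whose pattern over the 6 libraries was most like that of TKT, by the root mean square distance between log2(FPKM + 1) values centred on each gene's mean, were THBS1 (0.0739), MCM10 (0.0747), CLMP (0.0837), HAVCR1 (0.0922) and ADORA1 (0.105). THBS1, the gene of the matrix protein thrombospondin 1, was at 249.8, 232 and 294 FPKM in Dox and at 2990, 3119 and 2898 FPKM in Cont. MCM10, a DNA replication factor, was at 2.18, 2.04 and 2.38 FPKM in Dox and at 36.3, 38.2 and 31.4 FPKM in Cont. CLMP, a cell adhesion molecule, averaged 1.93 ± 0.305 FPKM in Dox and 34.5 ± 0.460 FPKM in Cont, HAVCR1, a cell surface receptor, 12.7 ± 2.18 FPKM in Dox and 173.6 ± 15.1 FPKM in Cont, and ADORA1, an adenosine receptor, 1.29 ± 0.249 FPKM in Dox and 24.7 ± 4.41 FPKM in Cont (SD, n = 3 each). With 2 groups of 3 libraries this likeness mostly measures a log2 change of the same size, which for these 5 genes ran from -3.68 to -3.48.

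TKT was also lower relative to PRPS1 and PRPS2, which use the pathway's ribose 5-phosphate. The ratio of TKT to PRPS2 FPKM was 0.366, 0.407 and 0.452 in Dox and 1.10, 1.06 and 1.13 in Cont. The ratio of TKT to PRPS1 was 1.32, 1.19 and 1.52 in Dox and 4.53, 4.49 and 4.43 in Cont. Both ratios did not overlap between the groups (exact two-sided permutation p = 0.1, the smallest that 3 against 3 libraries allow), and both were chosen after their values were seen. Over all pairs of tested genes, 82.4% of FPKM ratios did not overlap, so this alone does not set the 2 ratios apart.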
